A study of Mus musculus with 2 samples.

Results

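Mir322, Mir503, Mir351, Mir542, Mir450-2, Mir450-1 and Mir450b form a cluster of microRNA hairpins on the minus strand of mouse chromosome X. The 7 genes were taken by symbol, through the mm10 GENCODE annotation, from the 1973 microRNA genes of the count tables, and all 7 had an entry. The data are microRNA-seq counts from the livers of 2 newborn B6NCrl pups, pup 1 and pup 2, at postnatal day 0, both carried by 1 pregnant female. Each liver gave 1 library with inserts below 30 bases, no agent or allele was applied, and the sex of the pups was not collected. The libraries form 1 group with no second tissue, age or treatment, so comparisons run between members and between pups. Pup 1 gave 3422622 counts on the strand of microRNA genes and pup 2 gave 4538427. Levels are counts per 1000000 of these (CPM), with mean ± SD over n = 2 pups.

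A microRNA is cut from a hairpin in a longer primary transcript, and either arm of the hairpin can yield the mature strand of the silencing complex. Bases 2 to 8 of that strand, the seed, do most of the pairing to target messenger RNAs, so microRNAs with 1 seed act on overlapping targets. miR-322, whose human ortholog is miR-424, and miR-503 are relatives of the miR-15 and miR-16 family. That family lowers cyclins and other drivers of the cell cycle, and in cultured mouse muscle cells miR-322 and miR-503 promote exit from the cycle through Cdc25a. miR-351 carries the seed of the miR-125 family, the mammalian relatives of worm lin-4. In human cells miR-542-3p is known to target survivin, an inhibitor of cell death needed for division. The newborn liver is still growing and still holds blood-forming cells.

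The mature sequences show which families the cluster belongs to. They are from RefSeq on GRCm38.p6, which holds mature strands for all 7 members and the whole hairpin for 6 of them, Mir351 being the exception. Each is written 5′ to 3′ in RNA letters with the seed in capitals. The arm usually taken as the main product of each hairpin, in 5′ to 3′ order along the minus strand, is this:
miR-322-5p: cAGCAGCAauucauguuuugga
miR-503-5p: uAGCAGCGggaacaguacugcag
miR-351-5p: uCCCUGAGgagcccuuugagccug
miR-542-3p: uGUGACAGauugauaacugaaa
miR-450a-5p: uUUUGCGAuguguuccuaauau
miR-450b-5p: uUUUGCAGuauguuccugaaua
Relatives encoded on other chromosomes are shown for the seeds they share:
miR-15a-5p: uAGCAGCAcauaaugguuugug
miR-16-5p: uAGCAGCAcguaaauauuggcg
miR-125a-5p: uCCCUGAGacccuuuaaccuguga
miR-125b-5p: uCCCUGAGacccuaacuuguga
The seed of miR-322-5p is carried by 10 mature mouse microRNAs from 11 hairpins in RefSeq, and that of miR-351-5p by 5 from 6 hairpins. The seeds of miR-503-5p, miR-542-3p and miR-450b-5p were each found in 1 hairpin only. miR-503-5p shares bases 2 to 7 with miR-322-5p, and its first 7 bases are those of miR-16-5p. Beyond the seed the relatives diverge. Positions were compared from the 5′ end over the whole strand, seed included. They were the same at 15 of 22 for miR-322-5p and miR-15a-5p and at 10 of 24 for miR-351-5p and miR-125a-5p.

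The locus spans 6353 bases, chrX:53047997-53054349 on mm10, between Hprt and Plac1. Because it lies on the minus strand, Mir322 (ENSMUSG00000065418.1, chrX:53054255-53054349) is the hairpin at its 5′ end. Mir503 (ENSMUSG00000076122.1, chrX:53053984-53054054) follows after 200 bases and Mir351 (ENSMUSG00000065503.1, chrX:53053255-53053353) after 630 more. The longest gap, 3767 bases, separates Mir351 from Mir542 (ENSMUSG00000076140.1, chrX:53049403-53049487). Mir450-2 (ENSMUSG00000076399.1, chrX:53048299-53048367), Mir450-1 (ENSMUSG00000065486.1, chrX:53048154-53048244) and Mir450b (ENSMUSG00000076050.1, chrX:53047997-53048078) lie next to each other, 54 and 75 bases apart. RefSeq places Mir322, Mir503 and Mir351 inside the long noncoding RNA gene C430049B03Rik (chrX:53053112-53057190). GENCODE M21 ends that gene 696 bases before Mir322 and puts all 7 hairpins outside other genes, so neither annotation holds 1 transcript with all 7.

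**Figure D1:**
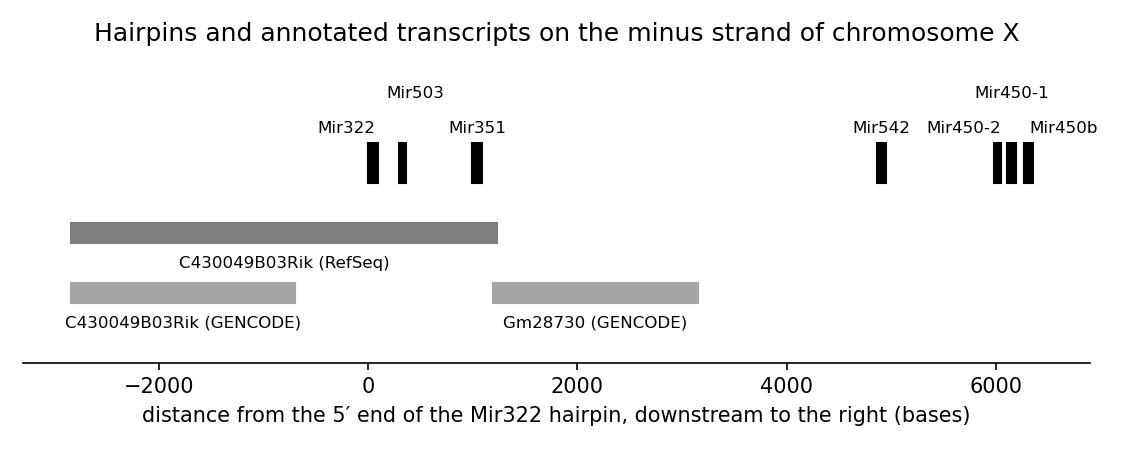
The horizontal axis is the distance in bases downstream of the 5′ end of the Mir322 hairpin, with black boxes for the 7 hairpins and grey bars for annotated noncoding genes. Mir322, Mir503 and Mir351 lie together inside the RefSeq gene, and a gap of 3767 bases separates them from the other hairpins.

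Every member was detected, and by mean level the members ranked from 13 to 239 of the 1973 genes. All 7 of 7 members had 10 counts or more in each library, while 15.8% of all genes reached that. Mir322 had 49679 counts in pup 1 and 63699 in pup 2, or 14515 and 14035 CPM, a mean of 14275 ± 339 CPM. It ranked 12 of all genes in pup 1 and 13 in pup 2. Mir351 stood at 2279.8 CPM in pup 1 and 2598 CPM in pup 2, a mean of 2439 ± 225 CPM. Mir322 was thus 6.37 times Mir351 in pup 1 and 5.40 times in pup 2. Mir542 came next with 524 and 506 CPM in pups 1 and 2, a mean of 515 ± 12.8 CPM. Mir503, the nearest neighbour of Mir322, had only 326 CPM in pup 1 and 332 CPM in pup 2, a mean of 329 ± 3.72 CPM. The Mir322 level was 43.4 ± 1.52 times that of Mir503, although the hairpins lie 200 bases apart. Mir450b had 148 and 173 CPM in pups 1 and 2, a mean of 160.4 ± 18.1 CPM. In whole liver, a low level from fewer cells of a type and one from less RNA per cell cannot be told apart.

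The order of the levels was the same in both pups. Each step from Mir322 to Mir351, Mir542, Mir503 and Mir450b was separated, meaning that neither pup crossed the order and the means lay further apart than their SDs added together. The smallest of these steps was Mir542 over Mir503, at 1.57 ± 0.0565 times, and it was 1.31 times when counts were divided by hairpin length. Mir450-2 at 19.4 ± 1.47 CPM and Mir450-1 at 17.8 ± 2.50 CPM were not separated, and their place below Mir450b holds for uniquely mapped reads only. With 2 pups the smallest two-sided p of an exact sign-flip permutation test is 0.5, so no p is given for these steps. Each read covers 1 mature strand, so counts were otherwise not divided by length. Hairpin counts do not tell the arms apart, and capture and ligation can differ between sequences by an amount not measured here.

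**Figure D2:**
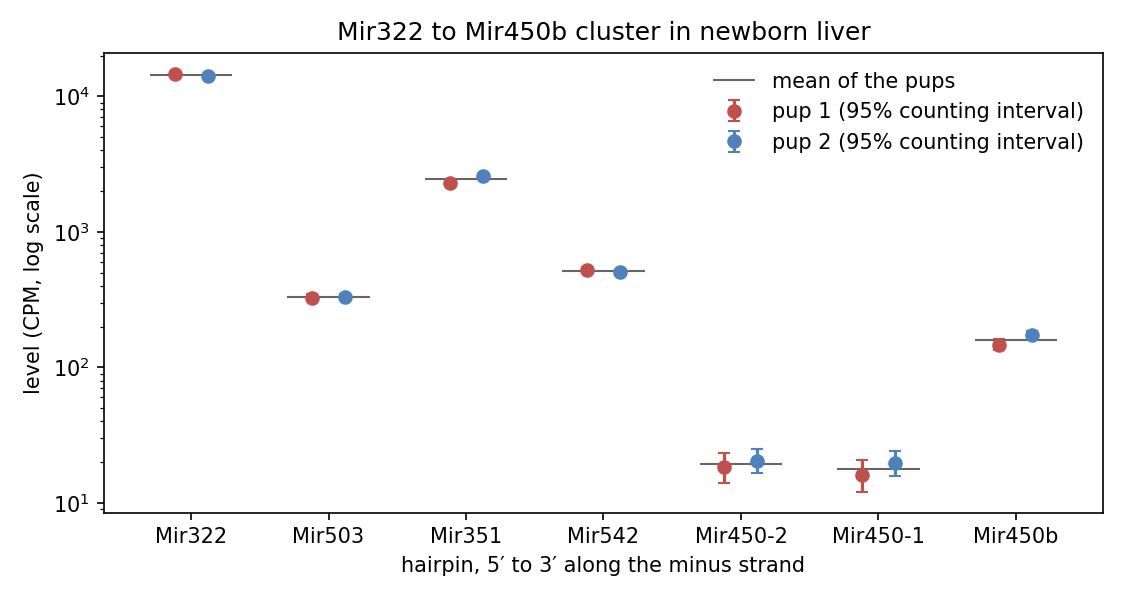
The vertical axis gives the level in CPM on a log scale for each hairpin, in 5′ to 3′ order along the minus strand, with a point per pup, its 95% counting interval and a line at the mean. Mir322 stands at 14275 CPM and its neighbour Mir503 at 329 CPM, and the uniquely mapped reads of Mir450-2 and Mir450-1 lie lowest, near 19 and 18 CPM.

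The 5′ group of hairpins held nearly all of the uniquely mapped counts of the cluster. Mir322, Mir503 and Mir351 together had 17121 CPM in pup 1 and 16965 CPM in pup 2, which was 95.99% ± 0.0755 of the cluster. Mir542 and the Mir450 hairpins together had 706 CPM in pup 1 and 719 CPM in pup 2. Mir322 alone made up 81.4% of the cluster in pup 1 and 79.4% in pup 2, and Mir351 12.8% and 14.7%. Mir503 lay below both of its neighbours on the chromosome. The GC content of the hairpins moved with the level in part, at 50.5% to 54.9% for Mir322, Mir503, Mir351 and Mir542 and 30.5% to 36.2% for the Mir450 hairpins, and its part in the levels was not tested.

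The low counts of Mir450-1 and Mir450-2 cannot be read as the level of miR-450a-5p. Both hairpins encode that strand, and the 25 bases in capitals below are identical in the 2 hairpins (RefSeq, GRCm38.p6, minus strand, 5′ to 3′):
Mir450-2: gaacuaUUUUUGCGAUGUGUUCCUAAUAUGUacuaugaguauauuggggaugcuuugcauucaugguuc
Mir450-1: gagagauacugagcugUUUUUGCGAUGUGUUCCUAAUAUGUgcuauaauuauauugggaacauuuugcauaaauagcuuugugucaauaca
A read that lies within these bases maps to both loci, and reads at several loci are given as a library total only, 25.2% of all reads in pup 1 and 24.7% in pup 2. Mir450-1 and Mir450-2 had 55 and 63 counts in pup 1 and 89 and 93 counts in pup 2, with a joint level of 37.3 ± 3.98 CPM. These uniquely mapped reads leave out an unknown number from miR-450a-5p. Mir450b shared up to 19 bases with Mir450-1, and the first 18 bases of miR-450b-3p and miR-450a-1-3p are the same:
miR-450b-3p: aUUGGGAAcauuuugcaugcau
miR-450a-1-3p: aUUGGGAAcauuuugcauaaau
The other members shared at most 13 bases with any hairpin outside the cluster and at most 10 with each other. Opposite-strand counts were 0 for all 7 members in both libraries, where a count of 0 allows up to 0.877 CPM in pup 1 and 0.661 CPM in pup 2.

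Mir322 was the most abundant hairpin of its seed family in uniquely mapped reads. Its level was 3.23 ± 0.0770 times that of Mir15a, which had 4422 CPM in each pup, and 4.98 ± 0.504 times that of Mir16-1. Mir16-1, which lies beside Mir15a on chromosome 14, had 3137 CPM in pup 1 and 2629 CPM in pup 2. Mir15b had 1940.0 and 2160.2 CPM in pups 1 and 2, Mir16-2 had 690 and 505 CPM, and Mir195a had 244 and 224 CPM. Mir322 made up 58.2% of the counts of the hairpins with this seed in pup 1 and 58.5% in pup 2, with both arms of each hairpin counted. Of the 11 hairpins with this seed, Mir195b, Mir6342, Mir6353 and Mir6419 were at 0 in both libraries, and Mir497 has no entry. The whole of miR-16-5p lies in both Mir16-1 and Mir16-2, so reads of miR-16 are undercounted by an unknown amount and the place of Mir322 against miR-16 is not settled. Without those hairpins, Mir322 held 68.0% of the rest. Mir503, with its near-identical seed, was 1.41 ± 0.10 times Mir195a, the weakest detected hairpin with the Mir322 seed.

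Mir351 had the highest uniquely mapped count among the hairpins of the miR-125 seed, with Mir125a nearest below it. Mir125a had 1761 CPM in pup 1 and 1663 CPM in pup 2, and the Mir351 level was 1.29 and 1.56 times that. Both pups put Mir351 above Mir125a, by a gap in means wider than the SDs added together. Mir125b-2 had 162 ± 3.68 CPM and Mir125b-1 38.8 ± 10.6 CPM. Both encode miR-125b-5p whole, so these values are undercounts of that strand by an unknown amount, and the place of Mir351 against miR-125b is not settled. Mir351 made up 53.9% of the counts of the hairpins with this seed in pup 1 and 58.1% in pup 2, again with both arms counted. Mir6367 and Mir6394, which share the seed, were at 0 in both libraries.

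**Figure D3:**
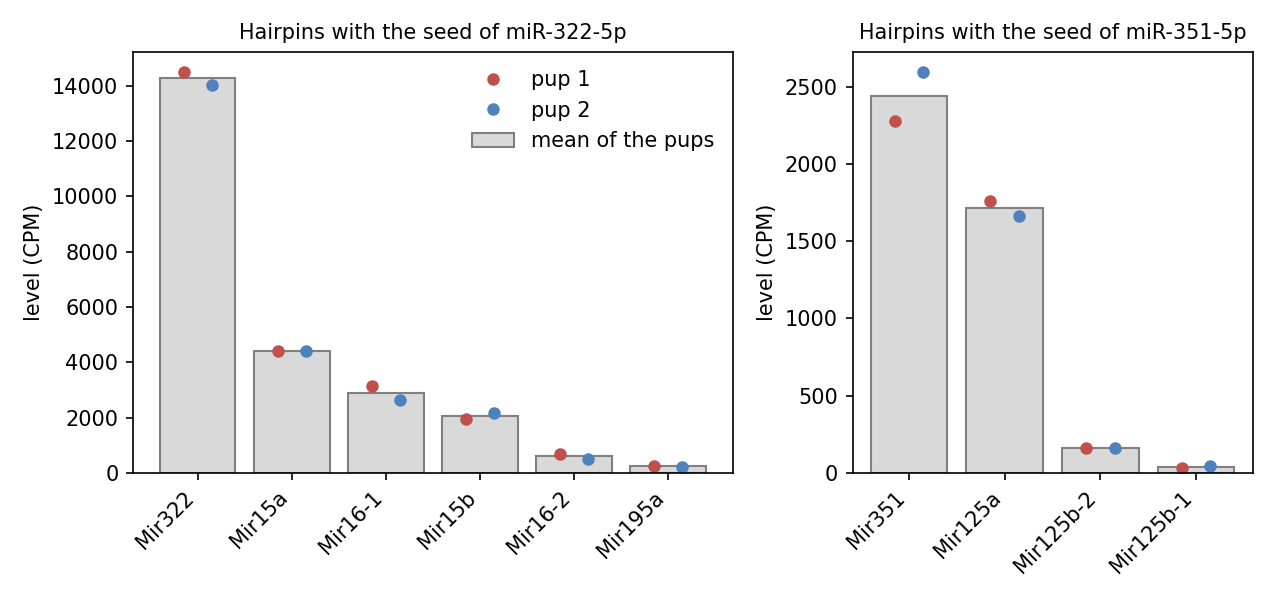
Levels in CPM are shown for the hairpins with counts that carry the seed of miR-322-5p (left) or miR-351-5p (right), with bars for the mean and a point per pup. In uniquely mapped reads Mir322 lies far above Mir15a and the other relatives, while Mir351 and Mir125a are closer, at 2439 and 1712 CPM. Reads of miR-16 and miR-125b are undercounted by an unknown amount.

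Next to 2 other microRNA clusters of chromosome X, this one held the larger share. It took 1.78% of all microRNA counts in pup 1 (exact 95% interval 1.77% to 1.80%) and 1.77% in pup 2 (1.76% to 1.78%), a mean of 1.78% ± 0.0101, or 2.73% of the counts other than Mir122. That was 45.1% of the uniquely mapped counts of the 120 chromosome X microRNA genes in pup 1 and 45.5% in pup 2. Mir322 ranked 1 among them in uniquely mapped reads, above the myeloid microRNA Mir223 at 8207 ± 510 CPM, and Mir351 ranked 5. Reads at several loci are not in this share or these ranks. The Clcn5 intronic cluster, led by Mir532 at 936 ± 27.9 CPM, held 0.182% in pup 1 and 0.175% in pup 2, without Mir660, which has no entry. The cluster from Mir106a to Mir363 held 0.0467% in pup 1 and 0.0418% in pup 2. Reads at several loci are left out, and of its hairpins Mir19b-2 and Mir92-2 each share 20 bases or more with another hairpin. In uniquely mapped reads the Mir322 cluster was 9.94 ± 0.218 times the Clcn5 cluster and 40.3 ± 2.97 times the Mir106a cluster. Both gaps were far larger than the spread between pups, and reads left out at several loci are not in them.

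The genes next above and next below each member in mean level were looked up over the whole table. Because they were picked for closeness in level, that 0 of these 14 were separated from their member follows largely from the choice. Mir322 lay between Mir30a (15294 ± 2206 CPM) and Mir143 (14225 ± 555 CPM), a microRNA of smooth muscle and other mesenchymal cells. Mir351 lay between Mir425 (2503 ± 367 CPM) and Mir18 (2125 ± 118 CPM). Mir503 lay between Mir188 of the Clcn5 cluster (330.5 ± 4.93 CPM) and Mir328 (328 ± 14.4 CPM). Likeness here is in mean level only, since 2 libraries give no pattern to correlate.

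The total of the cluster differed little between the pups. The cluster total was 17827 CPM in pup 1 and 17685 CPM in pup 2, a log2 ratio of 0.01 for pup 1 over pup 2, with overlapping intervals. The exact binomial test used Benjamini-Hochberg adjustment over the 390 genes with at least 10 counts. In it 3 of 7 members differed between the libraries, against 30.3% of all genes tested. With at least 100 counts over both libraries, which all 7 members had, 115 of 248 genes were called. Of these, 58 were higher in pup 1 and 57 lower. Mir322 was higher in pup 1, with a log2 ratio of 0.05 (95% interval 0.03 to 0.07; adjusted p = 1.52e-07, exact binomial test), a call that was lost when Mir122 was left out of the library totals (0.02, adjusted p = 0.0577). That made 1 member higher, against 14.4% of all genes. Mir351 was lower in pup 1, with a log2 ratio of -0.19 (-0.23 to -0.15; adjusted p = 2.86e-18, exact binomial test). Mir450b was lower as well, at -0.23 (-0.40 to -0.07; adjusted p = 0.0178, exact binomial test), so 2 members were lower, against 15.9% of all genes. Among the seed relatives in the table, Mir16-1 and Mir16-2 were higher in pup 1 and Mir15b lower, of 5 relatives with the Mir322 seed, and Mir125a was higher and Mir125b-1 lower of 3 with the Mir351 seed. In the Mir106a cluster 3 of 6 genes were higher in pup 1 and 0 lower, and in the Clcn5 cluster 1 of 5 was higher and 0 lower.

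The differences between the pups were small next to those between members. Mir503 had a log2 ratio of -0.02 (-0.14 to 0.09) and Mir542 of 0.05 (-0.04 to 0.14). Mir450-2 at -0.15 (-0.64 to 0.32) and Mir450-1 at -0.29 (-0.80 to 0.21) had wide intervals from under 100 counts each. The median over the members was -0.15, beside 0.00 over all 390 genes tested. Without regard to direction, the members' log2 ratios had sizes from 0.02 to 0.29 with a median of 0.15, beside a median of 0.19 over all 390 genes. Over the 221 genes with 100 counts or more in each library, which leave out Mir450-1 and Mir450-2, the median size was 0.12. The binomial test compares 2 libraries and knows counting error only. With the negative binomial exact test of edgeR, which takes the spread between the pups as noise, 0 of 7 members were called (0 at an unadjusted p under 0.05), and 0.513% of all genes.

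**Figure D4:**
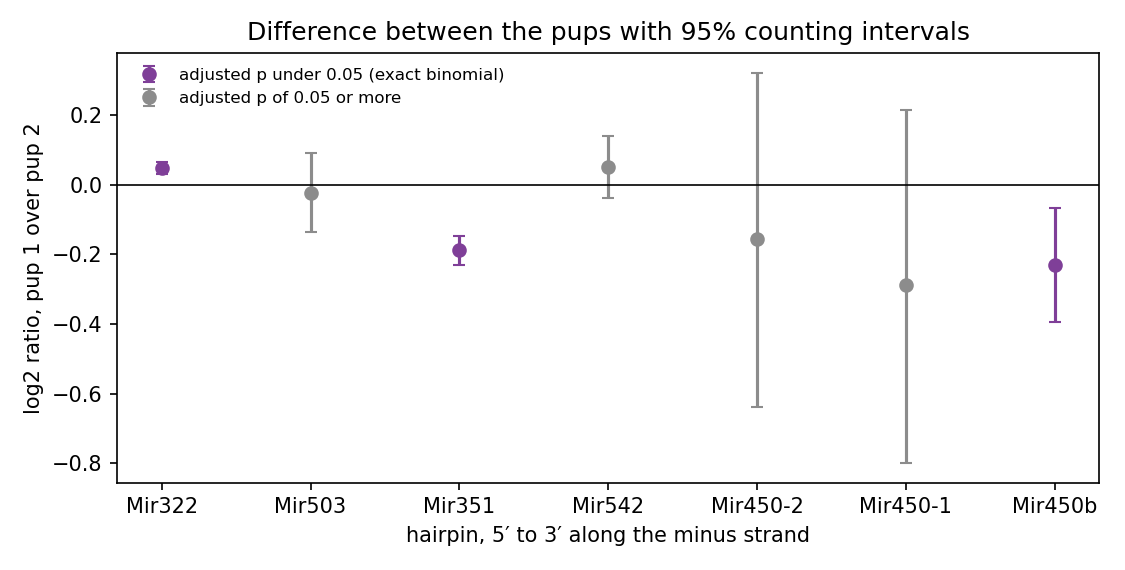
The vertical axis is the log2 ratio of pup 1 over pup 2 for each hairpin with its 95% counting interval, and purple marks an adjusted p under 0.05 in the exact binomial test. Mir322 lies just above 0, Mir351 and Mir450b lie below it, and the intervals of Mir450-2 and Mir450-1 are wide.

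Markers of liver and of other cells were checked once for the libraries. The hepatocyte microRNA Mir122 took 342309 CPM in pup 1 and 354939 CPM in pup 2, with Mir192 at 8746 ± 118 CPM and Mir148a at 3500 ± 275 CPM. Mir126a of endothelium (67576 ± 2260 CPM), Mir223 of myeloid cells, and Mir451a of red cells (3593 ± 401 CPM) were present too. The other red-cell microRNA, Mir144, had 1580.0 ± 291 CPM. Between the pups Mir451a had a log2 ratio of 0.23 and Mir144 of -0.38, so the pair moved in opposite directions (adjusted p = 8.64e-39 and 6.87e-46, exact binomial test). Among the mesenchymal markers, Mir143 was followed by Mir214 at 699.7 ± 3.33 CPM and Mir145a at 455 ± 10.1 CPM, while Mir199a-1, which shares 20 bases with 2 other hairpins, had 4 counts in pup 1 and 3 in pup 2. The pancreatic microRNA Mir375 had 2004 ± 113 CPM and the other on that list, Mir217, 23.5 ± 3.87 CPM. The neural markers Mir124-1 and Mir9-1 have no entry by these names, and Mir142 has none. Other hairpins of the neural families, named after their values were seen, were Mir124a-2 and Mir124a-3, at 0 in both libraries, and Mir9-3. Mir9-3 had 1 count in pup 1 and 0 in pup 2, all in uniquely mapped reads only. The muscle microRNA Mir206 had 136 CPM in pup 1 and 1004 CPM in pup 2, and Mir133b, named after its values were seen, had 1 count in pup 1 and 20 in pup 2. Mir1a-1 and Mir133a-1 were listed at 0 in both libraries, but each shares 20 bases or more with 2 other hairpins, so reads of their mature strands may be left out and the 0 does not give their level. Which cells carried the cluster cannot be told apart in whole tissue. The part of Mir206 or of cell makeup in the log2 ratios of the members was not tested.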

How the data were processed

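Raw counts per microRNA gene were deposited by the authors, 1 table per liver, on assembly mm10 with annotation GENCODE M4, as their readme text states. Which aligner and counter made them is not given in the sources used here. The tables hold unstranded, gene-strand and opposite-strand columns without headers, told apart by their values. Reads at several loci, and 333144 and 499994 uniquely mapped reads not on the strand of a microRNA gene (pups 1 and 2), stayed out of library sizes. Symbols and coordinates came from GENCODE M21 (1894 of 1973 identifiers matched, and the other 79 held 0 counts). Printed sequences and seeds came from RefSeq. GC content and the stretches shared between hairpins were taken from the GENCODE M21 hairpin sequences.

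Gene-strand counts were scaled to the library total (CPM). The 390 genes whose counts summed to 10 or more were compared between libraries by a two-sided exact binomial test, Benjamini-Hochberg threshold 0.05 (SciPy 1.17.1). Its check on simulated data drew Poisson counts, with counting error only, so it does not cover spread between pups. A quasi-likelihood test needs replicate libraries within a group, and each pup has 1. Alternatives used edgeR 4.0.16 and DESeq2 1.42.0 size factors. Intervals (95%; Poisson, Clopper-Pearson) and the limit for 0 (3 counts) cover counting error only, since PCR copies are not independent molecules. Hairpins with a common stretch of 20 bases were marked. The members, the comparison clusters and seed relatives, the tests and the alternatives were chosen with earlier results of these data known. Named genes were the members, those lists and the genes next in level.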

Additional observations from a re-analysis of the deposited data

How the results depend on the processing

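Among the results on the members and their clusters, the share of the cluster moved with the total it is divided by, from 1.78% to 1.69% of counts made without regard to strand, 1.61% of all uniquely mapped reads and 2.73% of counts without Mir122. It was 1.77% and 1.78% with replicate 1 and replicate 2 left out, and 1.77% without Mir450-1 and Mir450-2, which share 20 bases. Reads at several loci are in none of these totals, so the share of the cluster in all microRNA reads was not measured. Mir322 held 68.0% of the hairpins that remained once those sharing 20 bases were left out, against 58.4% of all hairpins with its seed. That alternative drops the undercounted Mir16 hairpins and does not correct them; any reads added to them would put the share below 58.4%. The binomial test called 3 members with TMM or median-ratio scaling, with counts without regard to strand and with either filter on low counts. It called 2 when Mir122 was left out of the totals, where Mir322 had a log2 ratio of 0.02 and an adjusted p of 0.0577 (exact binomial test). With edgeR's negative binomial exact test 0 members and 2 of 390 genes were called, in place of 118, because that test adds the spread between the pups. No log2 ratio of a member changed sign under any of these. Counts per base of the hairpin, an alternative added after the data were seen, kept the order of the levels. Tests between pups cannot leave out a replicate. No paired analysis was possible because the series has 1 group. Mir450-1 and Mir450-2 had under 100 counts per library, and depth and the reads left out at several loci cannot be told apart as limits on them.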
